A study of Mus musculus with 48 samples.

Results

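Liver transcripts of fasted wild-type (WT) mice were compared between ZT16, in the early subjective night, and ZT4, in the early subjective day. The 9 libraries were all those labelled WT at these times of day, 5 at ZT16 and 4 at ZT4, out of 48 libraries in the series. The series covers 25 WT and 23 knockout (KO) livers at 6 times of day, and KO stands for mice that lack Bmal1 (gene symbol Arntl), which drives the clock loop, in their adipocytes. The mice of both groups were female C57BL/6J, each library carries the age and weight of its mouse, and ZT counts hours from lights on in the light cycle of 12 h that preceded collection. All of them, controls included, had been kept in darkness for the last 1 day and without food for the last 24 h, so both groups describe fasted liver and neither a fed one. The labels name no floxed or Cre allele for WT mice and no promoter behind the deletion in KO mice. The ZT16 mice were 38 to 105 weeks old (73.4 ± 32.7 weeks, SD, n = 5) and the ZT4 mice 58.5 to 73.75 weeks (65.1 ± 7.82 weeks, SD, n = 4). The KO mice set beside them were 38 to 105 weeks old at ZT16 (n = 3) and 58.5 to 73.75 weeks at ZT4 (n = 4), and the WT mice of the 4 other times of day 28.75 to 80.75 weeks (n = 16). The question the comparison answers is which liver transcripts differ between night and day phases of the circadian cycle when no food is taken in.

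The circadian clock of liver cells is a feedback loop of transcription. BMAL1, paired with CLOCK or NPAS2, binds E-box sequences and switches on the period and cryptochrome genes, whose proteins then block it. The same pair drives REV-ERB receptors, which repress Arntl and Npas2 through elements shared with the activating ROR receptors, and PAR bZIP factors, which carry the rhythm to metabolic genes.

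Each of the 9 libraries held 12841969 to 13007696 counts without Alb, the gene of serum albumin, and between 16232 and 16942 genes had a count. Markers of hepatocytes, such as Apoa1 and Cyp2e1, were abundant in every library and summed to 56430 to 73772 CPM (counts scaled to library size) at ZT16 and 62125 to 66586 CPM at ZT4. The library of ZT16 replicate 2 stood apart from the other 8. Relative to each gene's mean, its log2 CPM fell by 0.63 for every 10 percentage points of GC content, against slopes of -0.014 to 0.602 in the others, and its median correlation with the other libraries was 0.932, against 0.954 to 0.970. The first principal component, 33.8% of the variance, set this library apart, and the second, 21.5%, separated the 5 ZT16 from the 4 ZT4 livers. The counts of all called genes, of clock outputs and of heat shock genes are therefore also given without it. The ZT16 mice weighed 21.02 ± 2.22 g (SD, n = 5) and the ZT4 mice 23.98 ± 1.54 g (SD, n = 4), a difference of -2.955 g that missed the threshold (exact permutation test, two-sided, p = 0.0635, smallest possible 0.0159).

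Of 13646 genes tested, 604 differed between ZT16 and ZT4 at an adjusted p under 0.05 (4.43% of the genes tested, quasi-likelihood test of edgeR, p adjusted after Benjamini and Hochberg). Of these, 314 were higher at ZT16 (2.3%) and 290 lower (2.125%). The higher genes moved further, with a median log2 fold change of 1.21, against -0.89 for the lower genes, and the change was at least 1 on the log2 scale in 212 higher and 121 lower genes. All log2 fold changes are ZT16 minus ZT4, so positive values mean more transcript in the night livers, and are given ± their standard error, with adjusted p from this fit over all genes. The 9 livers fell into groups that did not overlap in CPM for 475 of the 604 genes, beside 7.18% of all genes tested. As the same livers chose the 604 genes, this count is a description. Without ZT16 replicate 2 the counts were 341 higher and 326 lower, and without ZT4 replicate 1, 2 or 3 the totals were 368, 390 and 330. Scaled by library totals alone they were 239 higher and 439 lower, so the split between directions depends on the scaling. With only the 9 libraries in the fit, in place of all 48 sharing an estimate of the spread, 248 genes passed.

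Among the clock activators, Npas2 fell at ZT16. NPAS2 takes the place of CLOCK as the partner of BMAL1, and its gene (mm9 chromosome 1, 39250576 to 39420079) had 0.161, 0.586, 0.072, 0.255 and 0.475 CPM in the 5 ZT16 livers, in replicate order, against 3.45, 14.6, 2.54 and 4.02 CPM in the 4 ZT4 livers. Behind these levels stood 2, 7, 1, 3 and 6 reads at ZT16 and 45, 191, 34 and 56 reads at ZT4. Every ZT16 liver was below every ZT4 liver, and ZT4 replicate 2 was the highest of all. The log2 fold change was -4.29 ± 0.59 (adjusted p = 1.03e-05). Arntl itself had 13.8, 21.3, 15.2, 15.1 and 15.4 CPM at ZT16 against 20.2, 34.2, 12.4 and 17.6 CPM at ZT4, and Clock 41.2, 101, 38, 28.8 and 37.1 CPM against 26.6, 44.9, 40.2 and 42 CPM. For both genes the groups overlapped, and neither passed the test, with log2 fold changes of -0.38 ± 0.36 (adjusted p = 0.67) for Arntl and 0.36 ± 0.32 (adjusted p = 0.654) for Clock.

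Of the 9 clock repressors tested, 3 rose and none fell, beside 2.3% and 2.125% of all genes tested. Per2, which encodes one of the period proteins that inhibit BMAL1, had 91.4, 50.2, 79.8, 43 and 91.9 CPM at ZT16 against 8.9, 4.89, 14 and 14 CPM at ZT4. The lowest night liver held more than 3 times the level of the highest day liver, and the log2 fold change was 2.77 ± 0.30 (adjusted p = 1.36e-07). Cry1, the gene of a cryptochrome that blocks the BMAL1 pair directly, had 47.5, 45.8, 47.2, 52.8 and 33.8 CPM at ZT16 against 11.7, 22.7, 7.4 and 8.11 CPM at ZT4. Its groups did not overlap either, with ZT4 replicate 2 the nearest day liver to the night ones, and it rose by 1.87 ± 0.26 (adjusted p = 1.03e-05). Per3 rose by 1.19 ± 0.33 (adjusted p = 0.0265), but its levels of 48.2, 29.4, 39.7, 22.5 and 38.2 CPM at ZT16 and 16.8, 6.5, 27.2 and 12 CPM at ZT4 overlapped. The call for Per3 was lost without 5 of the 9 libraries, each left out in turn, and its adjusted p was highest, at 0.134, without ZT4 replicate 2.

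The other 6 repressors did not pass the test. Per1 had 85.7, 25.9, 81.3, 75.7 and 69.9 CPM at ZT16 and 85.1, 59.7, 25.3 and 15.1 CPM at ZT4, a spread over the 4 day livers that covered most of the night values (0.55 ± 0.57, adjusted p = 0.71). Cry2 differed by 0.38 ± 0.32 (adjusted p = 0.611), Bhlhe40 by 0.34 ± 0.36 (adjusted p = 0.721) and Bhlhe41 by -0.44 ± 0.56 (adjusted p = 0.777). Bhlhe40 and Bhlhe41 encode E-box repressors also known as DEC1 and DEC2. Gm129, or Ciart, whose product represses the BMAL1 pair, had 26.3, 13.5, 18.9, 29.4 and 6.97 CPM at ZT16 and 17.6, 4.59, 3.29 and 0.933 CPM at ZT4, with a log2 fold change of 1.52 ± 0.63 (adjusted p = 0.179). Timeless, at 1.42 to 3.89 CPM at ZT16 and 1.05 to 2.60 CPM at ZT4, was the flattest member (0.01 ± 0.38, adjusted p = 0.995).

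Of the nuclear receptors of the clock, Nr1d1 fell. Nr1d1, the gene of the repressing receptor REV-ERB alpha (mm9 chromosome 11, 98629246 to 98636647), had 12.1, 1.42, 6.76, 11.5 and 8.23 CPM at ZT16 against 186, 79.7, 55 and 34.3 CPM at ZT4. Its day livers spanned 34.3 to 186 CPM among themselves, yet all 4 stood above the 5 night livers, and the log2 fold change was -3.47 ± 0.80 (adjusted p = 0.00656). The related receptor Nr1d2 had 90.8, 118, 74, 70.7 and 50.9 CPM at ZT16 and 65, 65.1, 75.2 and 68.5 CPM at ZT4 and did not pass (0.24 ± 0.34, adjusted p = 0.81), nor did Rora (0.44 ± 0.31, adjusted p = 0.516). Rorb had no read in any of the 9 libraries and was not tested.

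**Figure D1:**
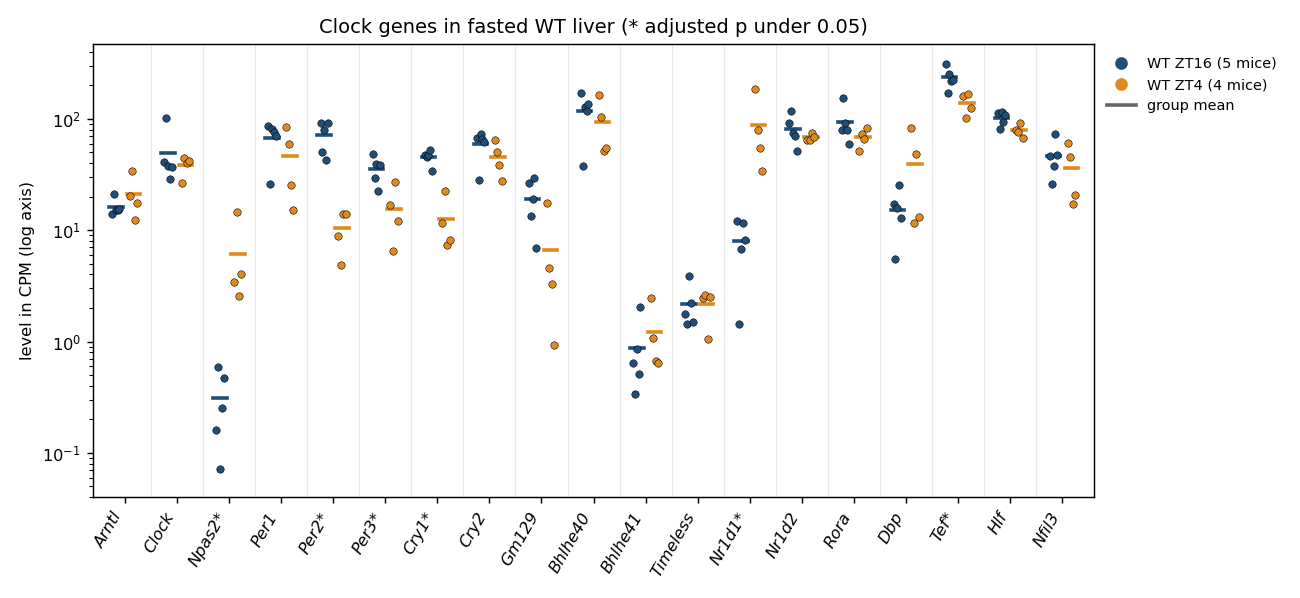
Level of clock genes in each WT liver, in CPM on a log axis, with ZT16 (5 mice, blue) left of ZT4 (4 mice, orange) for each gene, bars at group means and an asterisk at genes with an adjusted p under 0.05. Per2 and Cry1 lie higher at ZT16 and Npas2 and Nr1d1 lower, with no overlap between the groups.

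Of the PAR bZIP factors, which bind D-box sequences in output genes, Tef rose by 0.77 ± 0.19 (adjusted p = 0.013), with 309, 171, 255, 217 and 224 CPM at ZT16 against 159, 103, 168 and 124 CPM at ZT4. The lowest night liver was just above the highest day liver, and without ZT4 replicate 2 the adjusted p was 0.0768. Dbp, another of these factors, had 17, 5.53, 15.8, 25.3 and 12.8 CPM at ZT16 and 82.8, 11.6, 47.9 and 13.2 CPM at ZT4. The 4 day livers fell into a high and a low pair, the low pair lay within the night values, and the log2 fold change of -1.35 ± 0.48 (adjusted p = 0.107) did not pass. Hlf (0.37 ± 0.16, adjusted p = 0.215) and Nfil3 (0.36 ± 0.40, adjusted p = 0.739), whose product competes with these factors for the D-box, did not pass either.

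In WT livers at the other times of day, the means of these genes showed where ZT16 and ZT4 fall in the cycle. Per2 was higher at ZT12 (81.7 ± 26.6 CPM, SD, n = 4) than at ZT16 (71.3 ± 23.2 CPM, SD, n = 5), by less than the SD, and Cry1 was highest at ZT20 (54.9 ± 7.44 CPM). Arntl had means of 16.2 ± 2.92 CPM at ZT16 and 21.1 ± 9.3 CPM at ZT4, both between its extremes of 37 ± 5.94 CPM at ZT0 and 2.02 ± 1.12 CPM at ZT12. Dbp, with 15.3 ± 7.16 CPM at ZT16 and 38.9 ± 33.7 CPM at ZT4, was highest at ZT8 (124 ± 42.4 CPM), as was Nr1d2 (183 ± 32.6 CPM). A comparison of 2 times 12 h apart is thus blind to a gene that peaks midway between them, and a small difference here does not mark a gene as constant over the day.

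**Figure D2:**
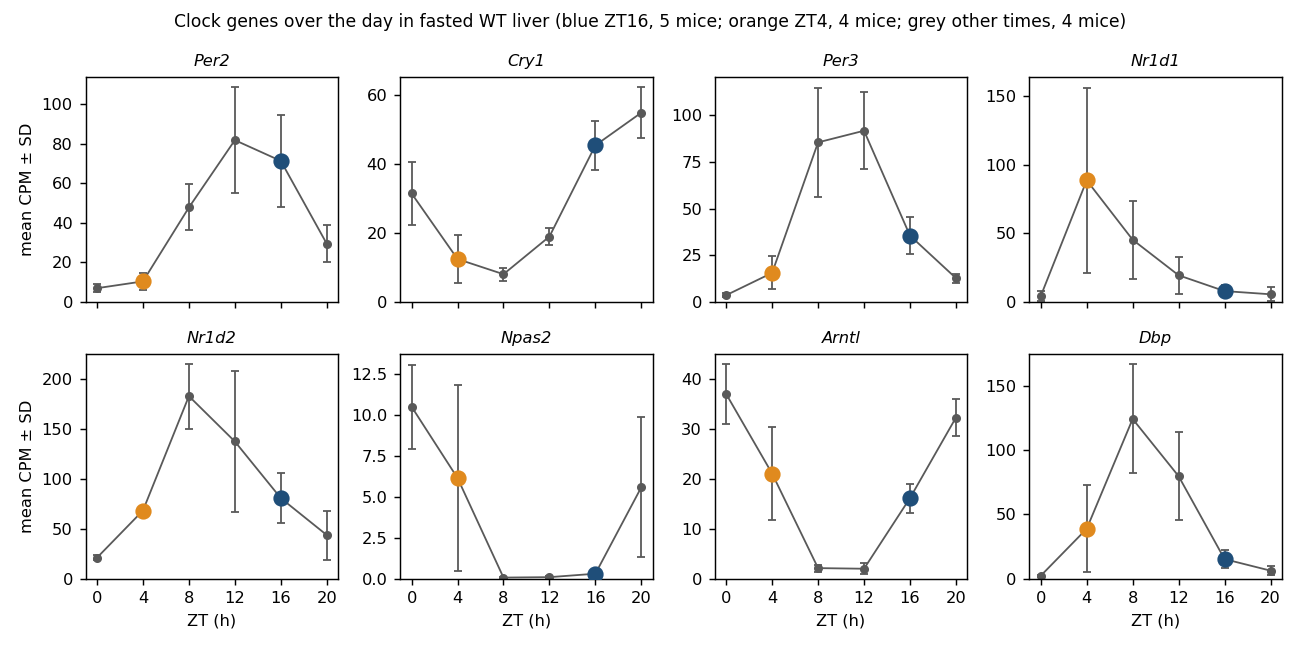
Mean level in CPM with SD of 8 clock genes in fasted WT liver against time of day in hours, with ZT16 (5 mice) in blue, ZT4 (4 mice) in orange and the other times (4 mice each) in grey. Dbp and Nr1d2 are highest at ZT8, and Arntl takes middle values at both times, 16.2 CPM at ZT16 and 21.1 CPM at ZT4, between its highest mean at ZT0 and its lowest at ZT12.

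The promoter windows of RefSeq, 250 bases before to 50 bases after each gene's start on GRCm38.p6, were searched on both strands for the E-box CACGTG, the D-box TTATGTAA or TTACGTAA, the element of ROR and REV-ERB receptors (AA, any base, T, any base and GGTCA) and the cyclic AMP response element TGACGTCA. Of 21 clock genes, 18 had a window in the table and 9 of them held at least 1 of these motifs. Among all 32851 windows, 7.15% held the E-box, 1.06% the D-box, 0.606% the ROR and REV-ERB element and 1.79% the cyclic AMP response element. Of the clock genes past the threshold, Cry1, Per3 and Tef held a motif, and the windows of Nr1d1 and Npas2 held none of these letters. The 250 bases before the start of these 3 genes are shown, 5′ to 3′ on the gene's strand and with the motif in capitals, because they are the clock genes that rose and carry the letters that clock factors are known to bind; a match is a description and was not tested as a binding site.
Cry1, minus strand, chr10:85185055-85185304: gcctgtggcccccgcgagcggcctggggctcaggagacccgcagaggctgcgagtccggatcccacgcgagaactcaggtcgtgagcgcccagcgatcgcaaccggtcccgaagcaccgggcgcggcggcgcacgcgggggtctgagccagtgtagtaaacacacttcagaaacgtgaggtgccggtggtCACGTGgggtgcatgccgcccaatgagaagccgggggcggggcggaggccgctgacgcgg
Per3, minus strand, chr4:151044666-151044915: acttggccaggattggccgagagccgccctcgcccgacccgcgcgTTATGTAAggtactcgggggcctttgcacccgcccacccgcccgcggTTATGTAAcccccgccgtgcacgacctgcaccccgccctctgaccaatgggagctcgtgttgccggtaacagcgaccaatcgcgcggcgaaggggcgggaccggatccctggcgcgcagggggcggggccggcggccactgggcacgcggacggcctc
Tef, plus strand, chr15:81802423-81802672: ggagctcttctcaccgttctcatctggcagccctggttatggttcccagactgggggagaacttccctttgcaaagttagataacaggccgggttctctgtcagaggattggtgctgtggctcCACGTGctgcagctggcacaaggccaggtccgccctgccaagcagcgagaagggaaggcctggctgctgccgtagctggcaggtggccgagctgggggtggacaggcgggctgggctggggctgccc
The E-box of Cry1 starts 60 bases before the gene's start and that of Tef 127 bases before it, and the D-boxes of Per3 start 205 and 158 bases before it. Gm129, which did not pass, held 3 E-boxes in its window, and Per1 and Bhlhe41 held 1 each, so the E-box was present both in clock genes that passed and in clock genes that did not.

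Of 11 genes whose products modify clock proteins, Usp2 rose and Fbxl21 fell, beside 2.3% and 2.125% of all genes tested. Usp2, a deubiquitinase that acts on period and cryptochrome proteins (mm9 chromosome 9, 43875104 to 43903708), had 115, 23.6, 110.2, 92.9 and 56.3 CPM at ZT16 against 6.9, 9.48, 4.94 and 2.37 CPM at ZT4. Its lowest night liver, replicate 2, was still above the highest day liver, and the log2 fold change of 3.75 ± 0.51 (adjusted p = 1.03e-05) was the largest rise among the clock lists. Fbxl21, which directs cryptochromes to ubiquitination, had 1.05, 0.837, 0.864, 1.36 and 0.871 CPM at ZT16 against 2.84, 2.37, 2.32 and 2.58 CPM at ZT4, a fall of 1.34 ± 0.28 on the log2 scale (adjusted p = 0.00262). The kinases Csnk1d and Csnk1e, the F-box genes Btrc and Fbxw11, and Gsk3b, Sirt1, Prkaa1 and Prkaa2 did not pass.

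A list of 25 liver outputs known to follow the clock had 14 members higher at ZT16 and 1 lower, beside 2.3% and 2.125% of all genes tested, and a median log2 fold change of 1.16 against 0.05 over all genes. Since the list was drawn up with earlier results of these data known and from genes known to cycle, its count is a description. Without ZT16 replicate 2 the count was 14 higher and 2 lower. The largest change was that of Upp2, a uridine phosphorylase, with 363, 731, 201, 389.8 and 216 CPM at ZT16 against 93.2, 90.1, 50.1 and 49.2 CPM at ZT4 and a log2 fold change of 2.43 ± 0.46 (adjusted p = 0.00113). Fmo5, a flavin monooxygenase and one of the more abundant members, had 2369, 1485, 2099, 2041 and 1016 CPM at ZT16 against 591, 785, 490.1 and 403 CPM at ZT4 (1.67 ± 0.26, adjusted p = 6.84e-05). In both genes every night liver exceeded every day liver. Lonrf3 (6.59, 9.21, 5.54, 5.77 and 5.14 CPM at ZT16, 1.46, 2.14, 1.42 and 1.51 CPM at ZT4) rose by 1.98 ± 0.38 (adjusted p = 0.00124). Nampt, the rate-limiting enzyme of NAD salvage, rose by 1.51 ± 0.33 (adjusted p = 0.00488), with 194, 266, 169.8, 144 and 122 CPM at ZT16 against 53.8, 56.2, 73.8 and 68.6 CPM at ZT4. Alas1, the first enzyme of haem synthesis, had 1910.3, 538, 639, 639 and 1074 CPM at ZT16 against 348, 382, 207 and 176 CPM at ZT4 and rose by 1.79 ± 0.43 (adjusted p = 0.010), and without ZT16 replicate 1, its highest library, the change was 1.38 and the adjusted p 0.0586.

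Among the other outputs, Wee1, the kinase that holds cells back from mitosis, had 5.31, 2.51, 4.75, 1.44 and 4.75 CPM at ZT16 against 0.997, 0.382, 1.42 and 0.646 CPM at ZT4. These low levels, from 66, 30, 66, 17 and 60 reads at ZT16 and 13, 5, 19 and 9 reads at ZT4, still gave 2.11 ± 0.52 (adjusted p = 0.0108), and without ZT4 replicate 2 the adjusted p was 0.0568. Por, which passes electrons to cytochrome P450 enzymes, rose by 1.62 ± 0.49 (adjusted p = 0.0478), with overlapping groups. Its call was lost without 7 of the 9 libraries, each left out in turn, with an adjusted p of 0.173 without ZT4 replicate 3. Tspan4, Cys1, Coq10b and Slc46a3 rose by 0.98, 1.95, 1.57 and 1.00 (adjusted p = 0.00164, 0.00262, 0.0059 and 0.00458). Cyp2a5 and Cyp2a4 rose by 1.56 and 2.16, and as these genes are near-identical, how reads were divided between them is uncertain. Dtx4 was the member that fell (-0.78 ± 0.22, adjusted p = 0.0312). Its call was lost without 6 of the 9 libraries in turn, with an adjusted p of 0.104 without ZT16 replicate 1. Cyp7a1, the rate-limiting enzyme of bile acid synthesis, had 111, 197, 42.8, 30.8 and 67.1 CPM at ZT16 and 121, 90.3, 214 and 181 CPM at ZT4 and did not pass (-0.76 ± 0.65, adjusted p = 0.631).

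Genes of the heat shock response rose together at ZT16, and the cold-inducible Cirbp fell. Heat shock proteins are chaperones whose genes are switched on by heat shock factor, and in liver they are known to follow the daily swing of body temperature. Of 20 genes on the list 19 were tested, 12 rose and 1 fell, beside 2.3% and 2.125% of all genes, with a median log2 fold change of 1.10. The count was again 12 higher and 1 lower without ZT16 replicate 2. Hsph1, of the HSP110 chaperones (mm9 chromosome 5, 150416862 to 150438951), had 172, 174, 96, 129 and 158 CPM at ZT16 against 26.2, 26.1, 25.9 and 39.4 CPM at ZT4 and rose by 2.31 ± 0.32 (adjusted p = 1.03e-05). Its day livers lay within 1 CPM of each other except replicate 4, and all were far below the night livers. Hspa1b, an inducible HSP70, had 28.6, 19.5, 9.28, 11.5 and 46.2 CPM at ZT16 against 0.69, 0.764, 1.2 and 3.73 CPM at ZT4, the largest change on the list at 3.83 ± 0.78 (adjusted p = 0.00206). Its near-identical neighbour Hspa1a was at 0.251 to 0.95 CPM at ZT16 and 0 to 0.23 CPM at ZT4 and was too low to test, and how reads shared by both genes were counted is not stated.

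The constitutive HSP70 gene Hspa8 had 2360.4, 3169, 1851, 2687 and 2502 CPM at ZT16 against 1035, 948, 1120.4 and 1257 CPM at ZT4, a rise of 1.21 ± 0.22 (adjusted p = 0.000785). Hsp90aa1, the inducible HSP90, had 313, 514, 171, 207 and 325 CPM at ZT16 against 78.7, 101, 101 and 102 CPM at ZT4 and rose by 1.68 ± 0.38 (adjusted p = 0.00505). Both genes showed night livers that were all above the day livers. Among the co-chaperones, the HSP40 gene Dnajb1 (51, 47.8, 34.3, 46.1 and 56.5 CPM at ZT16, 19.2, 16.6, 19.3 and 20.7 CPM at ZT4) rose by 1.32 ± 0.20 (adjusted p = 6.84e-05). Chordc1, which binds HSP90, had 65.6, 112, 60.2, 45.2 and 61.5 CPM at ZT16 against 17.4, 23.3, 21.7 and 30.8 CPM at ZT4 and rose by 1.56 ± 0.28 (adjusted p = 0.000719). Dnaja1, Hspa4l, Stip1, which links HSP70 to HSP90, and Ahsa1, which activates the HSP90 ATPase, rose by 1.10, 1.21, 0.93 and 0.78 (adjusted p = 0.00488, 0.00545, 0.00382 and 0.00543), each without overlap between the groups. The small heat shock protein gene Hspb1 (2.46 ± 0.65, adjusted p = 0.0205) and Bag3 (1.14 ± 0.35, adjusted p = 0.0486) passed as well. With each of the 9 libraries left out in turn, the call was lost 4 times for Hspb1 and 8 times for Bag3. Their adjusted p was highest without ZT4 replicate 3, at 0.0902 and 0.174.

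Cirbp, whose transcript is known to rise in the cold, had 28.1, 15.5, 40.1, 32.3 and 23.2 CPM at ZT16 against 102, 101, 61.5 and 51.7 CPM at ZT4. All 5 night livers were below the 4 day livers, and the fall was 1.51 ± 0.31 on the log2 scale (adjusted p = 0.00206). Rbm3, the other cold-inducible gene of the list, had 71.2, 107, 65.3, 33.5 and 58.8 CPM at ZT16 and 73.4, 80.3, 105 and 138 CPM at ZT4 and did not pass (-0.56 ± 0.26, adjusted p = 0.252), and neither did Hsf1, the gene of the heat shock factor (0.52 ± 0.37, adjusted p = 0.523). The mitochondrial chaperones Hspd1 (0.37 ± 0.15, adjusted p = 0.175) and Hspe1 (0.60 ± 0.24, adjusted p = 0.169), the cytosolic Hspa4 (-0.05 ± 0.14, adjusted p = 0.912) and the HSP90 gene Hsp90ab1 (0.97 ± 0.51, adjusted p = 0.327) did not pass. In WT means over the day, 16 of the 19 genes were highest at ZT16, beside 19.8% of all genes tested, and Cirbp was highest at ZT4. Hspa4l, counted among the 16, was almost level at ZT16 and ZT20 (38.1 and 37.6 CPM). As the same ZT16 livers gave the calls and the list was made with earlier results of these data known, this count is a description. Hsph1 averaged 55 ± 16.6 CPM at ZT12, 146 ± 33.3 CPM at ZT16 and 88.6 ± 18.3 CPM at ZT20 (SD, n = 4, n = 5 at ZT16), so its level at ZT16 was above that of both neighbouring times.

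**Figure D3:**
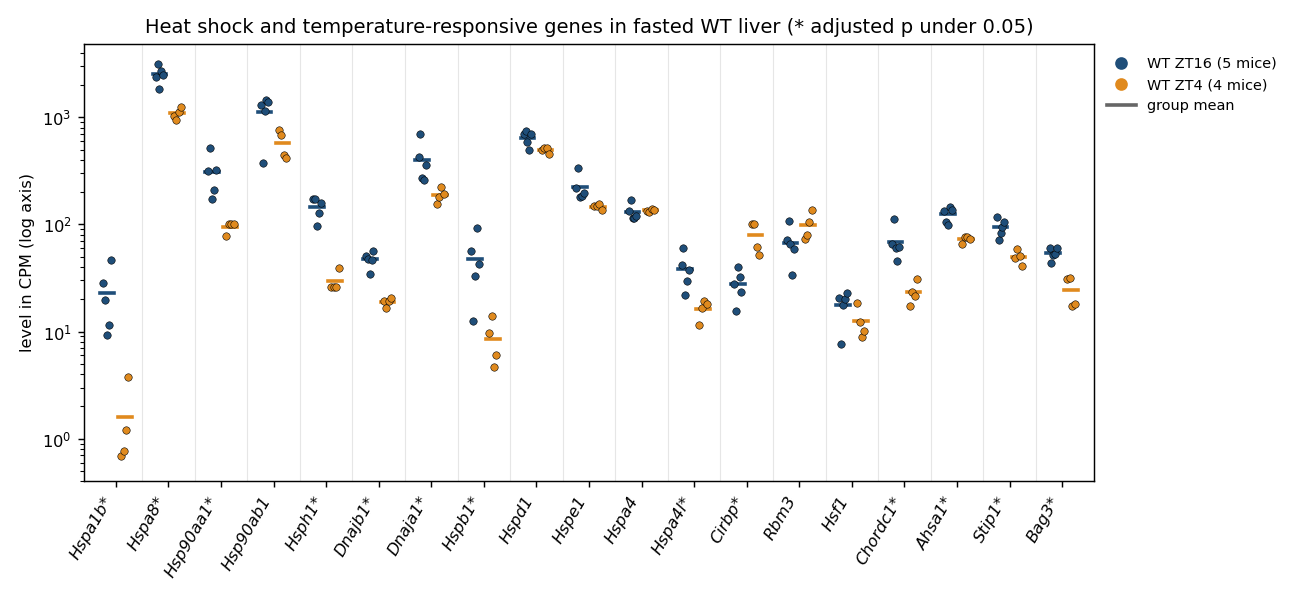
Level of the 19 tested heat shock and temperature-responsive genes in each WT liver, in CPM on a log axis, with ZT16 (5 mice, blue) left of ZT4 (4 mice, orange), bars at group means and an asterisk at genes with an adjusted p under 0.05. Night livers lie above day livers for 12 marked genes, with overlap in Hspb1, and below them for Cirbp.

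The heat shock element (GAA, any 2 bases, TTC, any 2 bases and GAA) was present in 0.603% of all promoter windows, both strands searched. Of the 15 heat shock genes with a window, 4 held it, and of the 10 that rose and had a window, 2 held it, Hsph1 and Chordc1. A stretch of 30 bases around the element of each gene, which includes bases after the gene's start, is shown 5′ to 3′ on the gene's strand with the element in capitals, as an example of the letters that heat shock factor is known to bind. The 2 other genes that held the element were Hspd1 and Hspe1, which did not pass and whose windows overlap, so it was present both in genes that rose and in genes that did not pass.
Hsph1, minus strand, chr5:149636287-149636316: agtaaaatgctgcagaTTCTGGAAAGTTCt
Chordc1, plus strand, chr9:18292259-18292288: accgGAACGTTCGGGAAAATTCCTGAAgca
The stretch in Chordc1 holds 3 overlapping matches. The other genes that rose and had a window, Dnajb1, Dnaja1 and Hspb1 among them, did not carry these exact letters in this window, which says nothing about sites elsewhere or in other spellings.

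Targets of glucocorticoids, the adrenal hormones that rise before activity and in fasting, had 4 of 17 members higher and none lower, beside 2.3% and 2.125% of all genes tested, with a median log2 fold change of 0.34. The count was 2 without ZT4 replicate 1, 2 or 3 and with age as a term. Fkbp5, whose product binds the steroid receptor complex as a co-chaperone (mm9 chromosome 17, 28536040 to 28654469), had 355, 222, 290.4, 393 and 154 CPM at ZT16 against 48.8, 53.2, 43.8 and 33.7 CPM at ZT4 and rose by 2.66 ± 0.44 (adjusted p = 0.000231). Tsc22d3, known as GILZ, had 324, 209.7, 328, 414 and 190.4 CPM at ZT16 against 68.1, 118, 91.2 and 93 CPM at ZT4 and rose by 1.66 ± 0.30 (adjusted p = 0.000624). Both genes had no overlap between night and day livers. Zbtb16 (2.37 ± 0.71, adjusted p = 0.0448) and Ddit4, an inhibitor of mTORC1 (2.42 ± 0.73, adjusted p = 0.0457), passed near the threshold. Ddit4 had 16.3, 21.5, 21.2, 109 and 6.65 CPM at ZT16 against 7.82, 8.56, 5.38 and 4.31 CPM at ZT4, and without ZT16 replicate 4, its highest library, the change was 1.33 and the adjusted p 0.317. With each of the 9 libraries left out in turn, the call was lost 5 times for Ddit4 and 6 times for Zbtb16. Without ZT4 replicate 3 the adjusted p of Zbtb16 was 0.149. Nr3c1, the receptor gene (0.23 ± 0.30, adjusted p = 0.781), Tat (1.18 ± 0.46, adjusted p = 0.149), Pck1 (0.34 ± 0.39, adjusted p = 0.75) and Dusp1 (0.47 ± 0.40, adjusted p = 0.615) did not pass, nor did any of the 17 immediate early genes, of which Junb had the smallest p (-0.92 ± 0.42, adjusted p = 0.245).

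Among insulin and growth hormone responsive genes, 2 of 16 rose and none fell, beside 2.3% and 2.125% of all genes tested, and 1 rose when any of 6 of the 9 libraries was left out, ZT16 replicate 1, 3 or 4 or ZT4 replicate 1, 3 or 4. Foxo1, the transcription factor that insulin keeps out of the nucleus, had 93.9, 62.4, 95.7, 107 and 81.8 CPM at ZT16 against 36.7, 40.1, 34.3 and 45.6 CPM at ZT4 and rose by 1.17 ± 0.23 (adjusted p = 0.00126). Its relative Foxo3 rose by 0.75 ± 0.22 (adjusted p = 0.036), with an adjusted p of 0.135 without ZT4 replicate 3. In both genes the night livers were all above the day livers. Foxo1 was also the 1 called member among 16 genes of gluconeogenesis, of which none fell.

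Genes of fatty acid and triglyceride synthesis had 4 of 25 members higher and none lower, beside 2.3% and 2.125% of all genes tested (median log2 fold change 0.29). Lpin1, a phosphatidate phosphatase that makes diacylglycerol (mm9 chromosome 12, 16542475 to 16596576), had 717, 209, 359.7, 595 and 188 CPM at ZT16 against 50.9, 39.2, 19.7 and 39.5 CPM at ZT4, a rise of 3.47 ± 0.71 (adjusted p = 0.00207). The night livers differed several-fold among themselves, and the lowest of them still held more than 3 times the level of the highest day liver. Thrsp, known as Spot 14, which promotes lipogenesis, had 536, 371, 196, 173 and 243 CPM at ZT16 against 53.6, 78.3, 78.1 and 37.6 CPM at ZT4 and rose by 2.30 ± 0.50 (adjusted p = 0.00363). Lpin2, a second lipin, rose by 1.30 ± 0.29 (adjusted p = 0.00505), again without overlap. Dgat2, which makes triglyceride from diacylglycerol, passed with overlapping groups (0.98 ± 0.29, adjusted p = 0.0448). Its call was lost without 6 of the 9 libraries in turn, with an adjusted p of 0.157 without ZT4 replicate 4. The fatty acid synthase gene Fasn had 391, 50.5, 184, 157 and 403 CPM at ZT16 and 128, 127, 78.1 and 102 CPM at ZT4, and Srebf1, its transcriptional activator, 137, 12.6, 117, 69.9 and 115 CPM at ZT16 and 202, 138, 59.5 and 42.8 CPM at ZT4. Neither Fasn (1.12 ± 0.50, adjusted p = 0.229) nor Srebf1 (-0.29 ± 0.55, adjusted p = 0.865) passed, and in both the library of ZT16 replicate 2 was the lowest of the 9.

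Cholesterol genes leaned toward ZT16 with wide spread. Of 25 members 3 rose and none fell, beside 2.3% and 2.125% of all genes tested, while 23 had a log2 fold change above 0 and the median was 1.02, against 55.5% above 0 and a median of 0.05 over all genes tested. This lean was not particular to them. Male-biased liver genes (12 of 12 above 0, median 0.85) and cell cycle genes (17 of 20, 1.03) shared it. Acute phase genes (8 of 23, -0.26) and bile acid genes (8 of 20, -0.10) did not. Pmvk, a kinase of the synthesis pathway, had 75.6, 50.3, 61.5, 37.5 and 76.2 CPM at ZT16 against 33.2, 22.2, 29.7 and 28.7 CPM at ZT4 and rose by 1.08 ± 0.32 (adjusted p = 0.0442). This call was lost without 7 of the 9 libraries, each left out in turn, and its adjusted p was highest, at 0.142, without ZT4 replicate 2. Without ZT16 replicate 1, 3 or 5 or ZT4 replicate 2, 3 or 4, only 1 of the 25 members passed. Idi1 had 76, 141, 34.1, 3.4 and 69.5 CPM at ZT16 and 16.6, 8.48, 25.8 and 10.5 CPM at ZT4, and the lowest of all 9 values was that of ZT16 replicate 4. The same library was the lowest night liver for Sqle and Cyp51, and Idi1 did not pass (2.08 ± 0.68, adjusted p = 0.0727).

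PPAR alpha is the receptor that switches on fatty acid oxidation and ketone production in fasting. Of its 33 targets and related genes tested, 1 rose and none fell, beside 2.3% and 2.125% of all genes tested. Angptl4, a secreted inhibitor of lipoprotein lipase, had 439, 541, 257, 549.9 and 495 CPM at ZT16 against 127, 297, 199 and 257 CPM at ZT4 and rose by 1.05 ± 0.25 (adjusted p = 0.00795), with an adjusted p of 0.0585 without ZT4 replicate 1. Of 17 genes of lipid droplets and lipid uptake 2 rose, Plin5, a droplet coat protein (1.01 ± 0.26, adjusted p = 0.0152), and Fitm2, which partitions triglyceride into droplets (0.85 ± 0.22, adjusted p = 0.0171). Their adjusted p was 0.073 without ZT4 replicate 1 and 0.076 without ZT16 replicate 5. None of 20 genes of bile acid synthesis and transport passed, Hsd3b7 being the nearest (-0.62 ± 0.19, adjusted p = 0.0532).

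Of 22 genes of glycolysis and glycogen 3 rose and none fell, beside 2.3% and 2.125% of all genes tested. In DESeq2 6 of them rose, beside 382 of all 22353 genes. With the GC slope of each library as a term 7 rose, beside 794 of all 13646 genes. Ppp1r3b, which brings a phosphatase to glycogen and promotes its synthesis, had 658, 423, 616, 373 and 407 CPM at ZT16 against 152, 202, 252 and 223 CPM at ZT4 and rose by 1.26 ± 0.27 (adjusted p = 0.00363). Pfkfb3, which makes the activator of glycolysis fructose 2,6-bisphosphate, rose by 1.56 ± 0.34 (adjusted p = 0.00451). Pfkfb1, the liver form that can also remove it, rose by 1.04 ± 0.31 (adjusted p = 0.042). This call was lost without 6 of the 9 libraries in turn, and without ZT16 replicate 2 the change was 0.78 and the adjusted p 0.14. Among 24 genes of amino acid breakdown and the urea cycle, only Hal passed, and it fell, beside 2.125% of all genes tested. This first enzyme of histidine breakdown had 331, 289, 349, 349 and 243 CPM at ZT16 against 628, 859, 694 and 887 CPM at ZT4, a fall of 1.30 ± 0.30 (adjusted p = 0.00696). Amdhd1, a later enzyme of the same route and an abundant transcript, had 151, 94, 159.6, 144 and 125 CPM at ZT16 against 235, 341, 251 and 306 CPM at ZT4 and fell by 1.07 ± 0.28 (adjusted p = 0.0208), with an adjusted p of 0.0749 without ZT4 replicate 2. The Amdhd1 call was also lost without ZT16 replicate 2 or ZT4 replicate 4. All night livers were below all day livers in both genes.

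**Figure D4:**
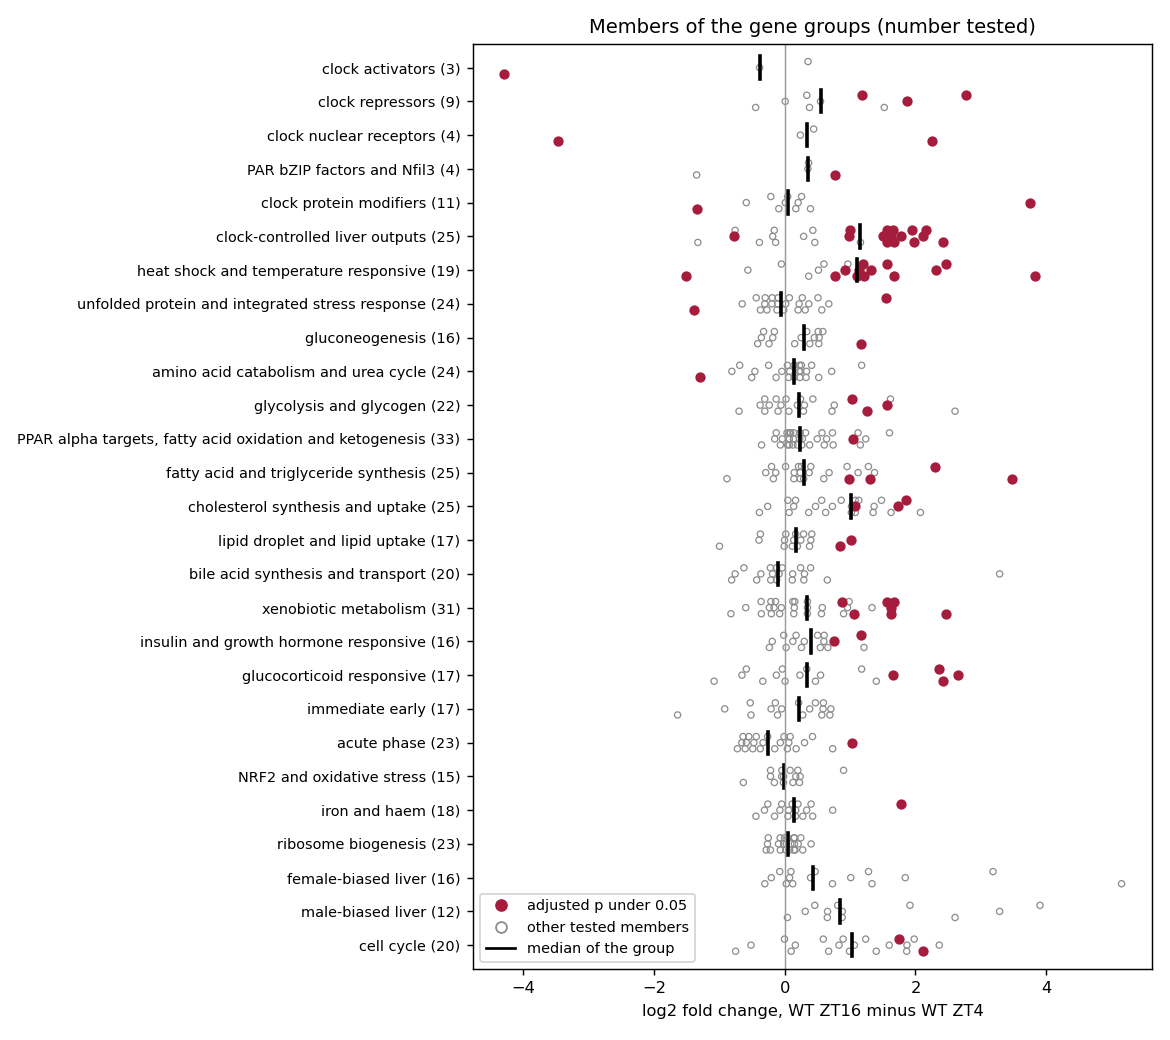
Log2 fold change, WT ZT16 minus WT ZT4, of every tested member of the 27 gene groups, one row a group with the number tested, filled points for an adjusted p under 0.05, open points for the rest and a black bar at the median. Filled points are most numerous to the right of 0 among clock-controlled outputs (14 of 25) and heat shock genes (12 of 19), and lie to the left of 0 for Npas2, Nr1d1, Fbxl21, Dtx4, Cirbp, Trib3 and Hal.

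Of 31 genes of xenobiotic metabolism 7 rose and none fell, beside 2.3% and 2.125% of all genes tested, with a median log2 fold change of 0.35. Without ZT4 replicate 1 or 4, and with only the compared groups in the fit, 4 rose. They were Fmo5, Cyp2a5 and Por, given above, and Nr1i2, Fmo2, Gsta3 and Cyp2b10. Nr1i2, the gene of the drug-sensing receptor PXR, had 222, 229, 184, 189 and 228 CPM at ZT16 against 111, 117, 127 and 105 CPM at ZT4, 2 tight groups that differed by 0.88 ± 0.16 (adjusted p = 0.000845). Fmo2 (160.1, 317, 174, 136 and 129 CPM at ZT16, 45.6, 47.3, 74.9 and 70 CPM at ZT4) rose by 1.62 ± 0.34 (adjusted p = 0.00256). Cyp2b10, a target of the receptor CAR, had 164, 205, 88.4, 366 and 34.6 CPM at ZT16 against 42.7, 47.7, 17.3 and 16.1 CPM at ZT4, with replicate 5 inside the day values (2.47 ± 0.68, adjusted p = 0.0257). Its adjusted p was 0.104 without ZT4 replicate 3, and that of Gsta3 (1.07 ± 0.29, adjusted p = 0.0269) was 0.0962 without ZT4 replicate 2. Cyp3a11, one of the main drug-oxidising enzymes of mouse liver, had 2937, 8642, 2020.4, 4154 and 2492 CPM at ZT16 and 2804, 3267, 2625 and 2268 CPM at ZT4 and did not pass (0.56 ± 0.34, adjusted p = 0.416). Its highest value came from ZT16 replicate 2.

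In the remaining groups genes passed about as often as the 4.43% of all genes tested, of which 2.3% were higher and 2.125% lower. Of 24 genes of the unfolded protein and integrated stress responses, Herpud1, which serves the breakdown of proteins from the endoplasmic reticulum, rose (1.56 ± 0.30, adjusted p = 0.00113) and the pseudokinase gene Trib3 fell (-1.38 ± 0.42, adjusted p = 0.0478). The call of Trib3 was lost without 7 of the 9 libraries in turn, with an adjusted p of 0.304 without ZT4 replicate 1. Herpud1 had 879.9, 321, 694, 938 and 652 CPM at ZT16 against 325, 219, 226 and 179 CPM at ZT4, with replicate 2 alone inside the day range. Of 23 acute phase genes, Saa4 rose (1.03 ± 0.24, adjusted p = 0.0085), with an adjusted p of 0.0502 without ZT4 replicate 4, and of 18 genes of iron and haem, Alas1 rose. Of 20 cell cycle genes, Wee1 and Ccne2, the gene of cyclin E2 (1.75 ± 0.50, adjusted p = 0.0349), rose. Ccne2 lost its call without 5 of the 9 libraries in turn, with an adjusted p of 0.121 without ZT4 replicate 4. Without ZT16 replicate 1, 5 of the 20 rose, beside 259 of all 13633 genes tested. Without ZT16 replicate 2, 4 of them rose, beside 341 of all 13635. No member passed among 15 genes of NRF2 and oxidative stress (smallest p in Srxn1, -0.63 ± 0.21, adjusted p = 0.0708), 23 of ribosome biogenesis (Pes1, -0.25 ± 0.11, adjusted p = 0.222), 16 female-biased liver genes (Cyp3a16, 5.15 ± 1.60, adjusted p = 0.0544) or 12 male-biased liver genes (Mup7, 1.92 ± 0.65, adjusted p = 0.087). Cyp3a16 had 32.6, 2.01, 24, 0.17 and 281 CPM at ZT16 and 2.99, 0.993, 3.51 and 0.144 CPM at ZT4, a range over night livers that ran from below 1 CPM to 281 CPM.

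Among the genes with the largest changes whatever their group, Aacs rose by 3.05 ± 0.39 (adjusted p = 5.49e-06). It encodes acetoacetyl-CoA synthetase, which feeds ketone bodies into lipid synthesis, and had 127, 33.8, 77.2, 71.7 and 54 CPM at ZT16 against 12.5, 5.27, 7.93 and 9.4 CPM at ZT4. Nrg4, the gene of neuregulin 4, a ligand of ErbB receptors (mm9 chromosome 9, 55068029 to 55174651), had 28.5, 48.2, 16.5, 28.3 and 15.7 CPM at ZT16 against 3.68, 3.9, 4.11 and 5.6 CPM at ZT4 and rose by 2.66 ± 0.36 (adjusted p = 1.03e-05). AA986860, a transcript with no role given in the files, had 13.5, 4.6, 11.4, 22.8 and 5.7 CPM at ZT16 against 2.3, 1.91, 1.05 and 1.58 CPM at ZT4 and rose by 2.76 ± 0.52 (adjusted p = 0.001). In these 3 genes all night livers were above all day livers.

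Of the lower genes whose log2 CPM averaged at least 2, those with the largest changes after Nr1d1 had smaller folds. Npas2, below that level, fell further than Nr1d1 (-4.29). Arrdc3, which encodes an arrestin-like adaptor, had 55.4, 47.1, 57.4, 28.7 and 31.5 CPM at ZT16 against 50.2, 81.3, 281 and 239 CPM at ZT4, a fall of 1.89 ± 0.50 (adjusted p = 0.0208). Its groups overlapped through ZT4 replicate 1, and without ZT4 replicate 3 the change was -1.49 and the adjusted p 0.132. Ethe1, a mitochondrial enzyme that clears sulfide, had 22.7, 21.5, 31.9, 35.3 and 23.4 CPM at ZT16 against 98.2, 108, 74 and 60.8 CPM at ZT4 and fell by 1.66 ± 0.33 (adjusted p = 0.00152). Fzd6, a receptor of Wnt ligands, had 2.33, 2.51, 4.53, 2.89 and 2.45 CPM at ZT16 against 10.2, 11, 8.38 and 5.81 CPM at ZT4 and fell by 1.58 ± 0.26 (adjusted p = 0.000154). For these last 2 genes the groups did not overlap. Arsg, a lysosomal sulfatase, the transcription factor gene Rfx4, the phosphatase gene Acpp and Gas7 fell by 1.62, 1.60, 1.84 and 1.79 (adjusted p = 0.00599, 0.00488, 0.00545 and 0.00202), without overlap. The Riken transcripts 2900052L18Rik and 2900005J15Rik fell by 1.84 and 1.71 (adjusted p = 0.000306 and 0.00944) and Klhdc7a by 1.83 (adjusted p = 0.0202). Klhdc7a lost its call without ZT4 replicate 3 (adjusted p = 0.0749) and 2900005J15Rik without ZT4 replicate 1 (adjusted p = 0.0598).

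Of abundant genes, with a mean of at least 100 CPM, those that fell most were Hal, given above, Slc4a4, Amdhd1, Krt18 and Apol7a. Slc4a4, a bicarbonate transporter, had 86.7, 141, 70.8, 41.3 and 132 CPM at ZT16 against 201, 193, 266 and 262 CPM at ZT4 and fell by 1.29 ± 0.23 (adjusted p = 0.000761). Krt18, a keratin of hepatocytes and bile duct cells, had 83.6, 88.6, 124, 132 and 116 CPM at ZT16 against 233, 225, 201 and 228 CPM at ZT4 and fell by 1.03 ± 0.28 (adjusted p = 0.0266). Neither gene had overlapping groups. The call of Krt18 was lost without 5 of the 9 libraries in turn, ZT16 replicate 2 among them, and without ZT16 replicate 1 its adjusted p was 0.0726. Apol7a fell by 0.92 (adjusted p = 0.0462). Its call was lost without 7 of the 9 libraries in turn, ZT16 replicate 2 among them, with an adjusted p of 0.185 without ZT4 replicate 3.

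A few large changes rested on single livers. Ighm, the heavy chain of immunoglobulin M, had 6.75, 8.29, 47, 5.09 and 1189.8 CPM at ZT16 against 8.74, 5.58, 8.45 and 7.75 CPM at ZT4, and Igkc, the kappa light chain, 12.5, 10.4, 27.6, 6.28 and 320.1 CPM at ZT16 against 7.82, 7.11, 11.1 and 14.8 CPM at ZT4. ZT16 replicate 5 was far above all other livers for both, and without it the log2 fold changes were 1.14 for Ighm and 0.48 for Igkc, with adjusted p of 0.52 and 0.765, in place of 5.04 and 2.88 with adjusted p of 0.00776 and 0.030. The summed level of 18 lymphocyte markers was 1724 CPM in that liver, 28.1 to 115.6 CPM in the other ZT16 livers and 27.2 to 47.6 CPM at ZT4, and the B cell genes Cd79a and Ms4a1 were also highest there, at 10.4 and 7.76 CPM. In whole liver, more cells of a type and more RNA per cell cannot be told apart. Mup11, a major urinary protein gene with near-identical neighbours, rose by 3.35 ± 1.00 (adjusted p = 0.0452) on 8.44, 80.7, 1.8, 362 and 7.99 CPM at ZT16 against 15, 9.71, 3.51 and 7.96 CPM at ZT4, and without ZT16 replicate 4 the change was 1.45 and the adjusted p 0.434.

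Among markers of cell types Ighm, Igkc, Des and Gpr182 passed the test, about as often as the 4.43% of all genes tested. No member passed among 13 hepatocyte, 15 Kupffer cell and macrophage, 12 neutrophil, 7 cholangiocyte, 5 erythroid, 4 adipocyte and 2 exocrine pancreas genes tested, and of 15 lymphocyte genes Ighm and Igkc passed. Several of these lists leaned toward ZT16, but for lymphocytes and neutrophils a single night liver stood far above the other night livers. The lymphocyte sum was 1724 CPM in ZT16 replicate 5, against 28.1 to 115.6 CPM in the other ZT16 livers. Neutrophil markers summed to 202 CPM in ZT16 replicate 3, against 28.2 to 68.1 CPM in the other ZT16 livers and 37.9 to 138 CPM at ZT4. The log2 fold change was above 0 in 15 of 15 lymphocyte genes (median 1.26), 10 of 12 neutrophil genes (1.43), 5 of 5 erythroid genes (1.31), 13 of 14 stellate cell and fibroblast genes (0.73) and 13 of 15 Kupffer cell and macrophage genes (0.40), beside 55.5% and a median of 0.05 over all genes tested. It was above 0 in 7 of 13 hepatocyte genes (0.07), 9 of 12 sinusoidal endothelium genes (0.23) and 3 of 7 cholangiocyte genes (-0.07). Of 14 stellate cell and fibroblast genes Des, the gene of desmin, rose (0.73 ± 0.22, adjusted p = 0.0482). Its call was lost without 7 of the 9 libraries in turn, with an adjusted p of 0.188 without ZT4 replicate 1. Stellate cell and fibroblast markers summed to 366 to 883 CPM at ZT16 and 191 to 428 CPM at ZT4, highest in ZT16 replicate 2. Of 12 sinusoidal endothelium genes Gpr182 rose (0.81 ± 0.23, adjusted p = 0.0384). This call was lost without 7 of the 9 libraries in turn, with an adjusted p of 0.162 without ZT16 replicate 3. The summed level of the endothelium markers was 224 to 432 CPM at ZT16 and 259.5 to 300.4 CPM at ZT4. Erythroid markers summed to 95.3 to 445 CPM at ZT16 and 47.8 to 122 CPM at ZT4, neutrophil markers to 28.2 to 202 CPM at ZT16 and 37.9 to 138 CPM at ZT4, and Kupffer cell markers to 194 to 872 CPM at ZT16 and 187 to 618 CPM at ZT4. Cholangiocyte markers summed to 68.6 to 99.5 CPM at ZT16 and 73.2 to 179 CPM at ZT4. Adipocyte markers summed to 256 to 1465 CPM at ZT16 and 395 to 1002 CPM at ZT4, while their defining gene Adipoq was at 0 to 0.085 CPM at ZT16 and at 0 in all ZT4 livers. Of the exocrine pancreas markers, which summed to 6.33 to 10.1 CPM at ZT16 and 6.31 to 8.9 CPM at ZT4, 7 had no read in any of the 9 livers. The part that these cells had in other results was not tested.

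The same times of day were compared in mice that the WT comparison had not used, 3 KO livers at ZT16 and 4 at ZT4. The GC slopes of these libraries, in replicate order, were 0.124, 0.154 and -0.755 at ZT16 and 0.49, -0.361, -0.818 and -0.702 at ZT4. That of WT ZT16 replicate 2 was -0.63, so several KO libraries had slopes as steep or steeper. In KO, 438 genes passed (3.21% of the genes tested), 273 higher (2%) and 165 lower (1.21%). Of the 314 genes higher in WT, 297 had a KO log2 fold change above 0, and of the 290 lower in WT, 279 had one below 0, beside 52.2% of all genes above 0 in KO. The median KO log2 fold changes of these genes were 0.79 and -0.62. In all, 156 genes passed in both genotypes and in the same direction, 25.8% of the WT calls and 35.6% of the KO calls, and none passed in opposite directions. No gene passed the test of the difference between the genotypes in edgeR, where 617 genes had an unadjusted p under 0.05 (4.52%), and 7 passed in DESeq2. Without KO ZT16 replicate 3, the library with the slope of -0.755, the edgeR count was 132. Missing that threshold does not show that both genotypes changed alike.

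Cry1, Per2 and Nr1d1 passed in both genotypes, Nr1d1 in KO with an adjusted p of 0.0391. Nr1d1 had 4.23, 4.96 and 0.163 CPM in the KO livers at ZT16 and 116, 11.7, 5.18 and 16.9 CPM in those at ZT4. KO ZT4 replicate 1 was thus far above the other KO livers. Cry1 changed by 2.59 in KO and by 1.87 in WT, Per2 by 1.74 in KO and 2.77 in WT, and Nr1d1 by -3.58 in KO and -3.47 in WT. The difference, KO minus WT, was 0.73 ± 0.37 for Cry1 (unadjusted p = 0.0569), -1.03 ± 0.42 for Per2 (unadjusted p = 0.0196) and -0.11 ± 1.17 for Nr1d1 (unadjusted p = 0.924), with adjusted p of 0.992, 0.992 and 0.998. Npas2 had 1.11, 3.131 and 2.78 CPM in the KO livers at ZT16 and 4.05, 3.54, 0.822 and 1.7 CPM in the KO livers at ZT4, a log2 fold change of -0.12 ± 0.57, against -4.29 in WT. The difference of these changes had the smallest p of all genes and an adjusted p of 0.0633. Arntl rose in KO (1.46, adjusted p = 0.0388) and Dbp fell in KO (-2.78, adjusted p = 0.00814), whereas neither passed in WT, and for neither did the difference between the genotypes pass. The KO call of Arntl was lost without KO ZT16 replicate 1 or 2 or KO ZT4 replicate 2, 3 or 4. That of Dbp was lost without KO ZT16 replicate 2. In the heat shock group, Hsph1 rose by 1.56 and Hspa1b by 3.11 in KO, and Cirbp had -1.17 (adjusted p = 0.0597). The KO count depended on single livers, with 217, 42 and 2146 genes when ZT16 replicate 1, 2 or 3 was left out and 1044, 210, 258 and 154 when ZT4 replicate 1, 2, 3 or 4 was.

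**Figure D5:**
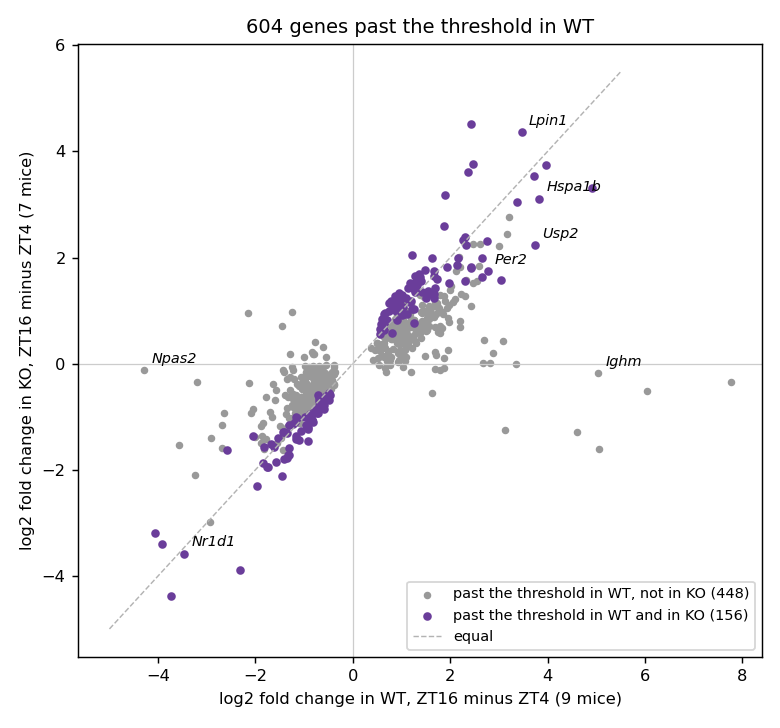
Log2 fold change, ZT16 minus ZT4, in KO liver (7 mice, vertical axis) against WT liver (9 mice, horizontal axis) for the 604 genes past the threshold in WT, in purple where they passed in KO too (156) and in grey where they did not, with a dashed line of equal change. Nr1d1 lies near the line, with KO ZT4 replicate 1 far above the other KO livers for this gene, while Npas2 and Ighm lie near 0 in KO.

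Over the 6 times of day in WT, most genes that were higher at ZT16 had their highest mean there (233 of 314), 63 had it at ZT12 and 13 at ZT20. Of the genes lower at ZT16, 154 of 290 had their highest mean at ZT4, 72 at ZT0 and 58 at ZT8, and 240 had their lowest mean at ZT16. As ZT16 and ZT4 means chose these genes, the counts are a description. The other pairs of times 12 h apart gave 564 genes for ZT12 minus ZT0 (4.133%, 258 higher and 306 lower) and 262 genes for ZT20 minus ZT8 (1.92%, 141 higher and 121 lower) in the same fit.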

How the data were processed

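Stranded polyA RNA libraries (13 PCR cycles, built over 3 days) were made from 48 livers, per the labels' protocols. The deposited values are whole-number counts of sense reads per gene, 1 column a library, per the file headers. The submitters' processing notes name CASAVA, STAR 2.4.1d and the genome build mm9, and the counting program, the annotation and any scaling to a common depth are not given in the sources used here. The near-equal library totals give no measure of sequencing depth before such a step. The Alb row held only multiples of 1 step of 1311.6 reads and was left out of library sizes and tests (7.36% to 13.25% of counts in the 9 libraries).

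Genes were filtered with filterByExpr, scaled by TMM and tested in R 4.3.3 with edgeR 4.0.16 (quasi-likelihood test, 12 genotype and time groups, contrast WT ZT16 minus WT ZT4, Benjamini-Hochberg adjustment over 13646 genes, threshold 0.05). In gene lists only members past the filter were tested. CPM are counts scaled to the TMM-adjusted library size. The labels do not say outright that every library came from its own mouse, so p-values measure the spread between these samples, which may in part be technical. The alternatives were DESeq2 1.42.0, other scalings, no filter, robust estimation, weight, age or replicate number as a term, the compared groups alone and each library left out. Where a gene's adjusted p is given without 1 library, that library raised it most, and leaving out others could end the call too. The GC slope of a library as a term, the compared groups alone without ZT16 replicate 2, and weight and age without each library, were added after seeing the data. The fit was tested on simulated data with known fold changes. Whole-liver counts carry counting error and, without molecular identifiers, PCR duplicates.

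The gene lists and the choice of members were made with earlier results of these data known. Genes named are the 12 higher and 12 lower with the largest fold change whose log2 CPM averaged at least 2, the 5 of each direction at a mean of at least 100 CPM, every clock gene of the 4 core lists, and up to 4 passing members of each other list by smallest p, or the member with the smallest p where none passed. A few genes that these rules name are not reported here. Other members are named as examples chosen after their values were seen. Promoter windows are those of RefSeq on GRCm38.p6, while gene coordinates are those of the deposited files on mm9.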

Additional observations from a re-analysis of the deposited data

Results flagged for a closer look

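Values that lay far from the rest of their group were looked for in every named gene, on a log scale after 0.5 CPM was added. A value met the rule where its gap to the nearest library exceeded the critical share of the group's range. Of 192 group values tested 9 met this, and chance gives about 1 in 20. All 5 of those at ZT16 came from replicate 2, the library with the different GC slope, and all 5 were clock genes that did not pass the test. The single high ZT16 livers of Ighm, Igkc, Mup11 and Ddit4 given above did not meet the rule on this log scale. In that library Arntl was at 21.3 CPM, against 13.8 to 15.4 CPM in the other 4 ZT16 livers, and Clock at 101 CPM, against 28.8 to 41.2 CPM. Per1 was at 25.9 CPM, against 69.9 to 85.7 CPM, Cry2 at 28.2 CPM, against 62.1 to 72.7 CPM, and Bhlhe40 at 37.9 CPM, against 118 to 170.3 CPM.

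At ZT4, Timeless was at 1.05 CPM in replicate 3, against 2.45 to 2.60 CPM in the others. Replicate 2 held 2.14 CPM of Lonrf3, against 1.42 to 1.51 CPM, and 247 CPM of Plin5, against 119.8 to 134 CPM. Hsph1 was at 39.4 CPM in replicate 4, against 25.9 to 26.2 CPM. The cause was not tested for any of these.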

How the results depend on the processing

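Of the 96 genes chosen by the naming rules 70 passed, 39 of them under all 20 alternatives run, and none changed sign while called. Without ZT16 replicate 2, 7 of the 70 lost their call. Called genes numbered 604 for WT ZT16 minus ZT4, 438 in KO, 0 for the difference between genotypes, 564 for ZT12 minus ZT0 and 262 for ZT20 minus ZT8. With DESeq2 these were 772, 684, 7, 824 and 464, and with no filter on low counts 423, 289, 0, 422 and 174. With only the groups compared in the fit, which leaves fewer samples to estimate the spread, 248 genes passed in WT, 3 in KO, 216 for ZT12 minus ZT0 and 163 for ZT20 minus ZT8. With the GC slope of each library as a term, 1639 genes passed in WT, 1444 in KO, 3 for the difference, 1548 for ZT12 minus ZT0 and 491 for ZT20 minus ZT8, and all 604 genes were among the 1639 (the cause was not tested). Scaling by library totals gave 239 higher and 439 lower genes in WT.

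Leaving out single libraries gave 330 to 667 genes in WT (368, 390 and 330 without ZT4 replicate 1, 2 and 3, highest without ZT16 replicate 2, with 497 of the 604 shared), 42 to 2146 in KO and 0 to 132 for the difference, the highest of both without KO ZT16 replicate 3. The compared groups alone without ZT16 replicate 2 gave 646. The weight difference ranged from -3.85 g (exact permutation p = 0.0286, without ZT16 replicate 5) to -2.38 g. With weight as a term 446 genes passed and with age 572. Replicate numbers did not pair the libraries, since correlations of deviations between same-numbered livers were 0.23, -0.30, -0.23 and -0.23, and the replicate block gave 537 genes. Low counts, such as the 1 to 7 reads of Npas2 at ZT16, and 4 or 5 mice a group limit what could be called.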

Other observations

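Glucocorticoid-responsive and immediate early genes had calls in KO livers that were lost when 1 library, KO ZT16 replicate 2, was left out. Of 17 glucocorticoid-responsive genes 7 passed in KO, beside 3.21% of all genes tested, against 4 in WT, beside 4.43%, with median log2 fold changes of 1.23 in KO and 0.34 in WT. All 7 were higher at ZT16, and besides the 4 called in WT they were Tat, an amino acid transaminase (log2 fold change 2.25 in KO and 1.18 in WT), Dusp1, a phosphatase of MAP kinases (2.03 and 0.47), and Cdkn1a, an inhibitor of the cell cycle (2.58 and 1.40). Ddit4 had 7.36, 319.8 and 3.1 CPM in the KO livers at ZT16 against 7.64, 3.78, 3.12 and 4.72 CPM in the KO livers at ZT4, and Fkbp5 had 95.3, 358 and 41.8 CPM at ZT16 against 33, 39.6, 50.5 and 42.9 CPM at ZT4. In both genes KO ZT16 replicate 2 was far above the other 6 KO livers. Of 17 immediate early genes 5 passed in KO and none in WT, beside the same 3.21% and 4.43%, with medians of 1.44 in KO and 0.21 in WT. They were Fosl2 (1.93 in KO and 0.59 in WT), Jun (2.133 and 0.38), Btg2 (1.87 and -0.14), Gadd45b (1.68 and 0.71) and Dusp1. Tsc22d3, Dusp1, Fosl2 and Gadd45b were higher in every KO ZT16 liver than in every KO ZT4 liver, while the other called genes of both lists overlapped. Without KO ZT16 replicate 2 no gene of either list passed in KO, where 42 genes passed in all, and the medians were 0.44 and 0.37. With only the compared groups in the fit no gene of either list passed in KO, where 3 genes passed in all. The cause of the values in that library was not tested.

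In the other direction, 5 of 25 clock outputs and 3 of 19 heat shock genes passed in KO, beside 3.21% of all genes, against 15 and 13 in WT, beside 4.43%. When single KO livers were left out, the KO counts ran from 0 to 8 clock outputs and from 1 to 8 heat shock genes, with both at their lowest without ZT16 replicate 2 (for heat shock genes also without ZT4 replicate 2 or 4) and at their highest without ZT16 replicate 3, while all KO calls ran from 42 to 2146. The difference between the genotypes passed for none of these genes, the counts of calls in KO and WT were not tested against each other, and the KO group at ZT16 held 3 livers.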
